A study of Mus musculus with 22 samples.

Results

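Type I interferon response genes were followed in B cell precursors of mice that expressed the RNA-binding protein LIN28B. The set held 44 genes, taken by symbol out of 41814 gene symbols listed in at least 1 of 3 deposited expression tables, and all 44 were listed in every table. RNA of small Pre-B, large Pre-B and large Pro-B cells, sorted from marrow of adult mice, was sequenced, which gave 22 libraries from 15 mice. Large Pro-B cells were sampled in 4 control and 5 tet-LIN28B mice, large Pre-B cells in 3 and 4, and small Pre-B cells in 3 and 3, and 7 mice gave both of the large stages. The study asked how LIN28B, a protein of fetal and neonatal blood cell development, changes adult B cell precursors when it is switched on.

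The tet-LIN28B mice carried a doxycycline-inducible, Flag-tagged human Lin28b cDNA at the Col1a locus (tetO-LIN28B) together with the transactivator rtTA*m2 at Rosa26, each on 1 allele. Their littermate controls were heterozygous for Rosa26 rtTA*m2 and had no LIN28B allele. Both genotypes received chow holding 200 mg/kg doxycycline over 10 days, so the drug and the transactivator were shared by all groups. Rosa26 is active in most cell types, and induction was therefore not limited to B cells. Both sexes were used interchangeably. Marrow was depleted of cells bearing CD3, TER119 or GR1, and CD93+ IgM- cells were separated by cKIT and by forward scatter. Reads assigned to mouse Lin28b, which can be human transgene reads, lay at 4.63 to 10.2 normalized counts in control and 57.0 to 232 in tet-LIN28B large Pro-B libraries, at 9.92 to 28.8 and 41.9 to 175 in large Pre-B, and at 0 and 81.9 to 230.2 in small Pre-B libraries. All tet-LIN28B libraries were therefore above the controls of their stage. A normalized count is the reads of a gene divided by the size factor of its library. Large Pro-B libraries held 13.9 to 23.3 M reads, large Pre-B libraries 19.9 to 30.4 M, and small Pre-B libraries, the deepest, 32.0 to 51.0 M. Cd79a, a B cell receptor component, was at 7783 or more in all 22 libraries, Kit was at 396 to 1701 in large Pro-B against 9.92 to 51.9 in large Pre-B libraries, and Il2ra, which marks Pre-B cells, was at 4504 to 10907 in small Pre-B libraries. The tables of the stages were normalized separately, and levels of different stages are therefore on separate scales.

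Type I interferons bind the receptor IFNAR1-IFNAR2, whose kinases JAK1 and TYK2 phosphorylate STAT proteins. With IRF9 these form the complex ISGF3, which binds interferon-stimulated response elements and raises a common set of antiviral genes. In bone marrow, low constitutive interferon signalling keeps many of these genes detectable without infection. RNA sensors stand at the start of the pathway, IRF7 amplifies it, and the OAS, IFIT, MX and ISG15 proteins are its effectors.

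The DNA element of this pathway is shown for called members as a feature of sequence. The members were chosen as interferon response genes, so a motif share above that of all genes can follow from that choice alone. In RefSeq windows of build GRCm38.p6, from 250 bases before to 50 bases after a gene's start, 32 of the 44 members had a sequence. The motif searched was GAAA, any 2 bases and GAAA again, on both strands (TTTC at each end on the other strand), and matches were allowed to overlap. It was present for 16 of the 32 members (50%), beside 1079 of all 27025 genes with a window (3.99%). It was found for 8 of 17 members with a window that passed the test in small Pre-B cells and for 8 of 15 that did not. No sequence was given for Mx1, Mx2, Oas1b, Oas2, Usp18, Ifi27, Dhx58, Zbp1, Rtp4, Parp9, Parp14 and Tor3a. The 5 stretches of called members that lay wholly before the gene follow, written along the strand of the gene with each match in capitals. They are Ifit1 at chr19:34640745-34640853 on the plus strand, Trim30a at chr7:104465194-104465269, Isg15 at chr4:156200835-156200936, Bst2 at chr8:71537547-71537642 and Rsad2 at chr12:26456523-26456612, all 4 of these on the minus strand.
Ifit1: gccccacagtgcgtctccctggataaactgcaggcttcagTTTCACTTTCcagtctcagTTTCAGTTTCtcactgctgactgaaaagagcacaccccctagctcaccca
Trim30a: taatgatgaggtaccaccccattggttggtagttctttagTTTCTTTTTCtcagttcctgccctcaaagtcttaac
Isg15: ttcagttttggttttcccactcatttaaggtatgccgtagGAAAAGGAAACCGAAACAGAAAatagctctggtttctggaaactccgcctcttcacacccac
Bst2: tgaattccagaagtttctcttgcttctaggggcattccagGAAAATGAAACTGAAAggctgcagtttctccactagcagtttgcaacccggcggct
Rsad2: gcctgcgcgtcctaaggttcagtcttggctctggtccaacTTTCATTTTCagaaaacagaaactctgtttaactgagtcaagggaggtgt
The Isg15 stretch held 3 overlapping matches and began its first 78 bases before the start, Bst2 held 2 overlapping matches, and Ifit1 held 2 separate ones. A match describes letters in the window and is not a measured binding site.

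In small Pre-B cells, interferon response genes were higher in tet-LIN28B than in control mice. Of the 44 members tested, 23 (52.3%) rose and 0 fell at a Benjamini-Hochberg adjusted p under 0.05 by limma on log2(normalized count + 1), against 7.34% of all 14664 genes that rose and 7.03% that fell. The gains ran from 1.30-fold for Ifi35 to 3.82-fold for Rsad2 among these 23. Across the members the median log2 fold change was 0.59, against -0.0024 for all genes tested, and 43 of 44 were above 0, beside 49.7% of all genes. Every tet-LIN28B library was above every control library for 26 members (59.1%), which held for 17.7% of all genes. In bulk RNA, fewer cells of a type and less RNA per cell cannot be told apart, and the same holds for more of either. At an unadjusted p under 0.05, 32 members were higher and 0 lower, against 14.8% and 14.2% of all genes. On recovered reads edgeR called 22 members higher, against 6.78% of all genes, and DESeq2 called 27, against 9.44%. The limma count fell to 13 without control replicate 1, to 12 without control replicate 2 and to 13 without tet-LIN28B replicate 1, against 3.31%, 4.56% and 3.76% of all genes, and 11 of the 23 passed whichever library was left out. Isg20, Bst2 and Xaf1 lost the call in 5 of the 6 fits that left out a library. Oas1b, Oasl1, Herc6 and both ends of the range of gains, Ifi35 and Rsad2, lost it in 4. The limma count was 0 when the 3 stages were fitted as 1 model, in which 15 genes in all rose and 6 fell.

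**Figure D1:**
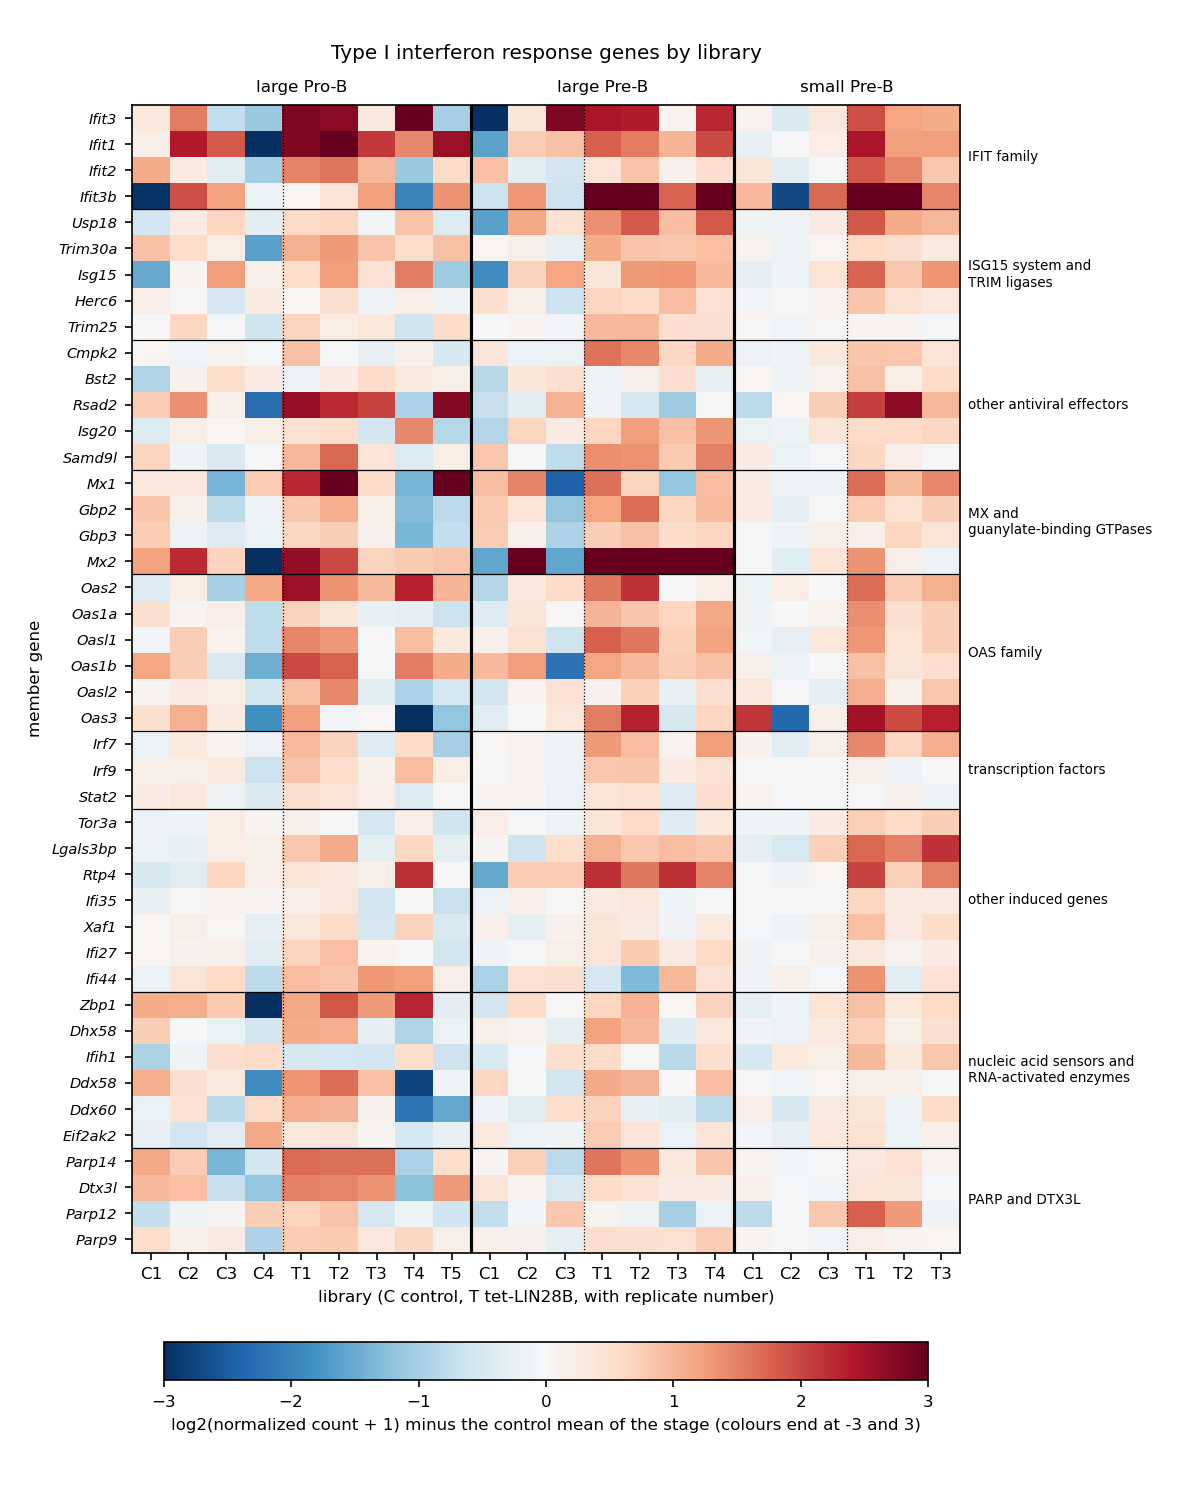
Each row is 1 of the 44 members grouped by role and each column 1 of the 22 libraries (C control, T tet-LIN28B), and the colour is log2(normalized count + 1) minus the control mean of the stage, red above and blue below. The 3 tet-LIN28B columns of small Pre-B are red over most rows, while the 5 of large Pro-B differ, with replicates 1 and 2 red and replicate 4 blue for Ddx58, Oas3 and Gbp3.

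Other cell markers also moved in small Pre-B cells, where 7.34% of all genes rose and 7.03% fell. Of 8 markers of immature and mature B cells, 5 were higher and 1 lower in tet-LIN28B libraries, and their summed level was 523732 to 534979.9 in control and 596918 to 658322 in tet-LIN28B libraries. Among them Ms4a1, which encodes CD20, lay at 5421 to 5688 in control and 13288 to 21179.9 in tet-LIN28B libraries. Of 2 markers of Pre-B cells, 1 was higher and 1 lower, with sums of 19832 to 20250 in control and 15531 to 16789 in tet-LIN28B libraries. The lower one, Il2ra, lay at 10209.9 to 10907 in control and 4504 to 5252 in tet-LIN28B libraries. Of 10 cell cycle genes, 4 were higher and 0 lower, with sums of 5286 to 6272 against 6697 to 9764. Of 10 genes used to mark plasmacytoid dendritic cells, the main interferon-producing cells, 7 were tested, 2 were higher and 1 lower. Their sums were 159646 to 166470 in control and 172496 to 195236 in tet-LIN28B libraries. The list holds Tcf4, Spib and Ly6d, which B cells also express, and the cells behind these sums were not tested. Siglech, a marker in that list, was at 0 in all 3 tet-LIN28B libraries and at 0, 0 and 4.65 in the controls. Ccr9, from the same list, was at 38.5 to 53.0 in control and 15.4 to 16.9 in tet-LIN28B libraries. In the large stages Siglech was detected, at 29.5 to 96.3 in large Pre-B and 0.823 to 84.0 in large Pro-B libraries, where the genotypes overlapped. The sum of 14 myeloid genes was 1640 to 3261 in control and 1557 to 1607 in tet-LIN28B libraries, and 0 of the 5 tested were called. Itgam alone was at 991 to 1701 in the 6 libraries. S100a8 went the other way from the sum, at 3.76 to 4.65 in control and 11.4 to 46.2 in tet-LIN28B libraries. The highest sum was that of control replicate 2, where Mpo, a neutrophil enzyme gene, was at 1162, against 0 in the other controls and 2.07 to 9.96 in tet-LIN28B libraries. By a count not taken over all genes, that library was the lowest of the 6 for 23 of the 44 members. Without it 26 members were higher at an unadjusted p under 0.05, beside 13% of all genes, against 32 and 14.8% with all libraries. Members called higher by limma fell from 23 to 12 without it, beside 7.34% and 4.56% of all genes. The sum of 9 of 10 erythroid genes, those with a small Pre-B row, was 842 to 969.9 in control and 641 to 717 in tet-LIN28B libraries. Of the 5 erythroid genes tested, the globin genes Hba-a2 and Hbb-bs were higher and the carbonic anhydrase gene Car2 was lower. The sum of 11 T and NK cell genes was at most 49.7 in any of the 6 libraries. The part of any of these cell states in the interferon response gene result was not tested.

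Transcription factors of the pathway differed among themselves in small Pre-B cells. Irf7, the amplifying factor, was at 299, 219 and 308 normalized counts in control libraries and at 746, 426 and 577 in tet-LIN28B libraries. The lowest tet-LIN28B library was above the highest control, and the log2 fold change was 1.06 ± 0.21 (SE, adjusted p = 0.00959). The DNA-binding subunit Irf9 and its partner Stat2 differed by 0.03 and -0.01, with adjusted p-values of 0.836 and 0.957. The annotated spans of Irf7 and Irf9 overlap those of Phrf1 and Rnf31, and that of Rtp4 overlaps Masp1, and reads of an overlap cannot be told apart without strand.

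None of the 6 RNA and DNA sensors passed the test in small Pre-B cells by limma, and 3 had an unadjusted p under 0.05, all higher. Zbp1, a sensor of Z-form nucleic acid, had the smallest p of this group, with 388, 426 and 619 normalized counts in controls and 867, 579 and 706 in tet-LIN28B libraries. Replicate 2 of tet-LIN28B was below control replicate 3, and the log2 fold change was 0.60 ± 0.19 (adjusted p = 0.0694). The RIG-I-like receptors gave 0.12 for Ddx58 (RIG-I), 0.70 for Ifih1 (MDA5) and 0.45 for Dhx58 (LGP2). The RNA-activated kinase gene Eif2ak2 (PKR) gave 0.14 and the helicase gene Ddx60 gave 0.26. DESeq2 called Zbp1 alone of these 6.

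IFIT proteins bind foreign RNA, and 3 of the 4 genes rose. Ifit1 was at 64.2, 75.7 and 87.4 normalized counts in controls and at 417, 176 and 179 in tet-LIN28B libraries, a 3.11-fold difference on the fitted scale (log2 fold change 1.64 ± 0.32, adjusted p = 0.00898). Ifit2 was at 144, 89.7 and 106 in controls and at 404, 310.1 and 195 in tet-LIN28B libraries (1.38 ± 0.28, adjusted p = 0.0104). For both genes the groups were apart, with tet-LIN28B replicate 1 the highest of the 6 libraries. Ifit3 was at 168, 114 and 194 in controls and at 593, 354 and 336 in tet-LIN28B libraries (1.41 ± 0.26, adjusted p = 0.00646). Its near-identical neighbour Ifit3b, with which it can share reads, was at most 20.7 in controls and 17.2 to 74.7 in tet-LIN28B libraries, overlapped, and gave 2.66 ± 1.03 (adjusted p = 0.116). The 4 genes lie side by side at chr19:34550550-34650009.

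OAS proteins make oligoadenylates that activate RNase L, and 4 of 6 rose. Oas2 was at 201, 272 and 230.1 normalized counts in controls and at 747, 389 and 487 in tet-LIN28B libraries (log2 fold change 1.16 ± 0.23, adjusted p = 0.00852). Oas1a was at 314, 339.5 and 364 in controls and at 887, 473 and 563 in tet-LIN28B libraries (0.87 ± 0.21, adjusted p = 0.0202). Replicate 1 was the highest tet-LIN28B library for both genes, and its margin over replicate 2 was larger than the gap between replicate 2 and the highest control. Oasl1, which lacks the synthetase activity, was at 342, 302 and 451 in controls and at 891, 479 and 601 in tet-LIN28B libraries (0.82 ± 0.22, adjusted p = 0.0361). Oas1b was at 342, 275 and 311 in controls and at 566, 399 and 434 in tet-LIN28B libraries (0.58 ± 0.16, adjusted p = 0.0398). Oas1a and Oas1b are close copies and can share reads. Oas3 and Oasl2 gave 2.27 ± 0.95 (adjusted p = 0.145) and 0.68 ± 0.25 and did not pass. Oas3 was the lowest member per kilobase of exon, at 21.4, 0 and 4.70 in controls and 27.5, 18.7 and 24.4 in tet-LIN28B libraries.

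Of the 4 GTPase genes, which encode the MX and guanylate-binding proteins that restrict viruses and vacuolar microbes, 2 rose. Mx1 was at 92.1, 72.4 and 70.4 normalized counts in controls and at 249.9, 150.4 and 214 in tet-LIN28B libraries (log2 fold change 1.35 ± 0.24, adjusted p = 0.00570). All tet-LIN28B libraries were well above the controls. Gbp2 was at 553, 385 and 476 in controls and at 794, 645 and 778 in tet-LIN28B libraries (0.66 ± 0.15, adjusted p = 0.0176). Gbp3 gave 0.40 with an adjusted p of 0.0519, close outside the threshold, and Mx2 gave 0.45 with 0.449. Mx1 and Mx2, and Gbp2 and Gbp3, are neighbouring relatives whose reads may be split.

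Of the ISG15 system and the TRIM ubiquitin ligases, 4 of 5 rose. Usp18, the protease that removes ISG15 and restrains the interferon receptor, was at 256, 259 and 333 normalized counts in controls and at 1029, 607 and 566 in tet-LIN28B libraries (log2 fold change 1.33 ± 0.22, adjusted p = 0.00375). Isg15, the ubiquitin-like modifier itself, was at 64.2, 72.4 and 106 in controls and at 266, 140.0 and 198 in tet-LIN28B libraries (1.29 ± 0.28, adjusted p = 0.0145). The groups did not overlap for either gene. Herc6, the ISG15 ligase of the mouse, was at 503, 524 and 559 in controls and at 946, 731 and 664 in tet-LIN28B libraries (0.55 ± 0.14, adjusted p = 0.0274). Trim30a, a more abundant member, was at 3641, 3035 and 3496 in controls and at 5100.5, 4730.0 and 4126 in tet-LIN28B libraries (0.46 ± 0.10, adjusted p = 0.0123). Trim25, the ligase that acts on RIG-I, gave 0.04 with an adjusted p of 0.714.

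Among 5 other antiviral effectors, 4 rose. Cmpk2, a mitochondrial nucleotide kinase, was at 1531, 1585 and 2183 normalized counts in controls and at 3103, 3039.6 and 2332 in tet-LIN28B libraries (log2 fold change 0.68 ± 0.15, adjusted p = 0.0134). Its neighbour Rsad2, which encodes viperin, was low, at 5.58, 10.8 and 17.8 in controls and at 47.2, 73.6 and 21.7 in tet-LIN28B libraries (1.93 ± 0.56, adjusted p = 0.0445). The groups were apart for both, narrowly so between control replicate 3 and tet-LIN28B replicate 3. Bst2, which encodes tetherin, was at 602, 528 and 622 in controls and at 1069, 684 and 855 in tet-LIN28B libraries (0.55 ± 0.16, adjusted p = 0.0411). Isg20, an exonuclease gene, was at 221, 229 and 329 in controls and at 379, 379 and 390.1 in tet-LIN28B libraries (0.58 ± 0.17, adjusted p = 0.0482). Both were near the threshold, and each lost its call in 5 of the 6 fits that left out a library. Samd9l gave 0.26 with an adjusted p of 0.309.

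None of the 3 ADP-ribosyltransferase genes Parp9, Parp12 and Parp14 and the ubiquitin ligase gene Dtx3l passed the test by limma, and 1 of these 4, Parp14, had an unadjusted p under 0.05. Parp14 was at 1789, 1606 and 1719 normalized counts in controls and at 2166, 2329 and 1814 in tet-LIN28B libraries. The groups were apart by a narrow margin, and the log2 fold change was 0.30 ± 0.10 (adjusted p = 0.0788). DESeq2 called it higher. Dtx3l and Parp9, whose annotated spans overlap, gave 0.23 and 0.12, and Parp12 gave 0.99 ± 0.53.

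Of 7 further induced genes, 5 rose. Tor3a, a torsin ATPase gene, had the smallest adjusted p of all members, with 999, 1001 and 1282 normalized counts in controls and 1791, 1643 and 1816 in tet-LIN28B libraries (log2 fold change 0.69 ± 0.11, adjusted p = 0.00343). Lgals3bp, which encodes a secreted galectin-binding glycoprotein, was at 30.7, 27.0 and 62.0 in controls and at 125, 108 and 171 in tet-LIN28B libraries (1.80 ± 0.35, adjusted p = 0.00815). Each was apart between genotypes, and tet-LIN28B replicate 3 was the highest library for both. Rtp4, a receptor transporter gene, was at 203, 183 and 206 in controls and at 812, 321 and 559 in tet-LIN28B libraries (1.42 ± 0.28, adjusted p = 0.00850). Ifi35 was at 3075, 3040.4 and 3049.9 in controls and at 4793, 3604 and 3666 in tet-LIN28B libraries (0.38 ± 0.10, adjusted p = 0.0347). Xaf1 gave 0.57 ± 0.16 (adjusted p = 0.0414), while Ifi27 and Ifi44 gave 0.22 and 0.48 and did not pass.

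**Figure D2:**
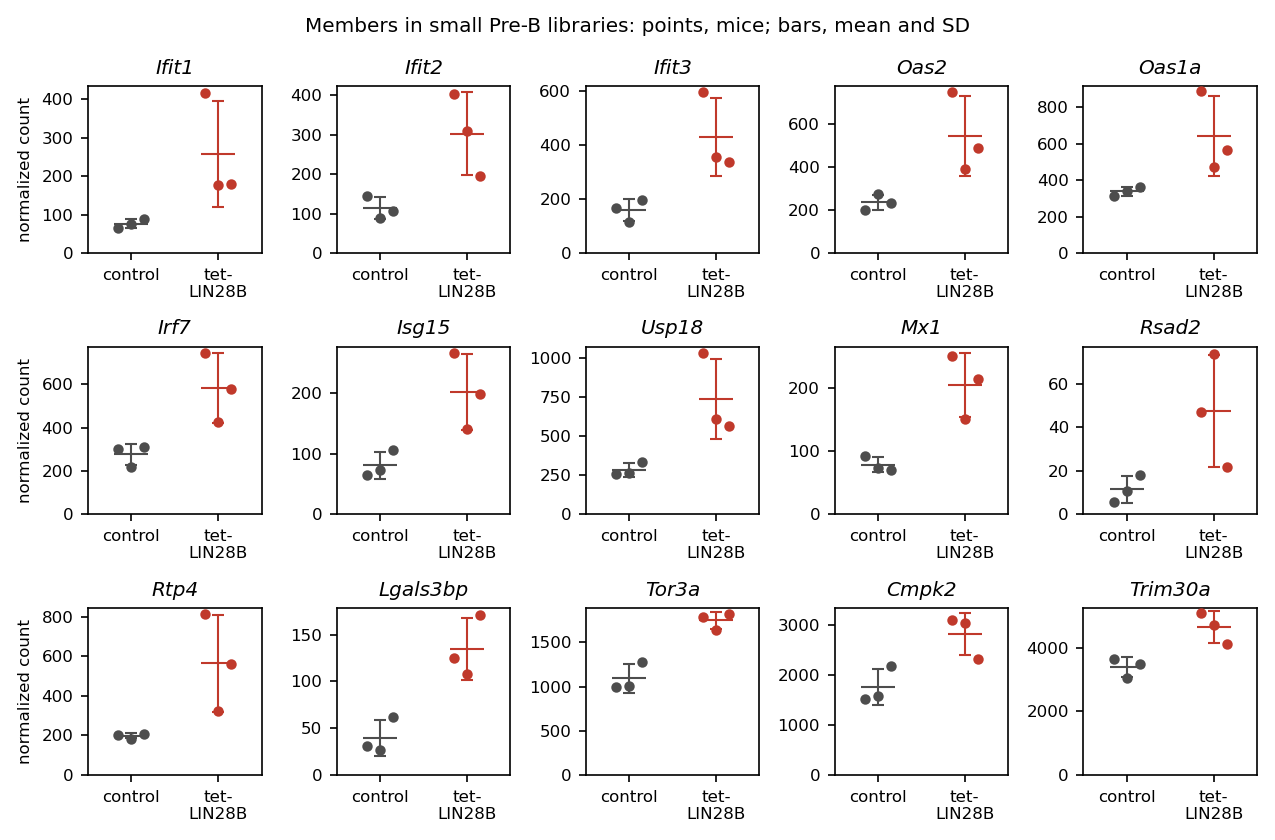
Normalized counts (y axes, from 0) of 15 called members in small Pre-B libraries of 3 control and 3 tet-LIN28B mice, each point a mouse, with the mean and SD as bars. In every panel the tet-LIN28B points lie above the control points, and the spread among tet-LIN28B mice is wide for Ifit1, at 176 to 417, and narrow for Tor3a, at 1643 to 1816.

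The 3 small Pre-B tet-LIN28B mice were unequal. Replicate 1 was the highest of the 6 libraries for 34 of the 44 members, replicate 2 for 6 and replicate 3 for 4. No control library was highest for any, and such counts were not taken over all genes. Averaged over the 43 members tested in all stages, replicate 1 lay 1.07 above the control mean on the log2 scale, and replicates 2 and 3 lay 0.62 and 0.62 above it. The controls lay at 0.02, -0.23 and 0.21. Each tet-LIN28B mouse was thus above each control in this mean.

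Members expressed at a low level differed more between genotypes on this scale than abundant ones. Per kilobase of annotated exon, control levels in small Pre-B cells ran from 1.23 normalized counts for Oas3 to 2175 for Ifi27. The 23 members called higher had a median of 107 per kilobase and a range of 2.63 to 1769, and the 21 others a median of 161 and a range of 1.23 to 2175. Among the 22 members of lower control level per kilobase, the median log2 fold change was 1.22, and among the 22 of higher level it was 0.43. Spearman's rho between control level and log2 fold change was -0.70 across the 44 members, which share libraries and whose control values enter both measures. The value was -0.21 over 44 members in large Pre-B cells and -0.34 over the 43 tested in large Pro-B cells.

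**Figure D3:**
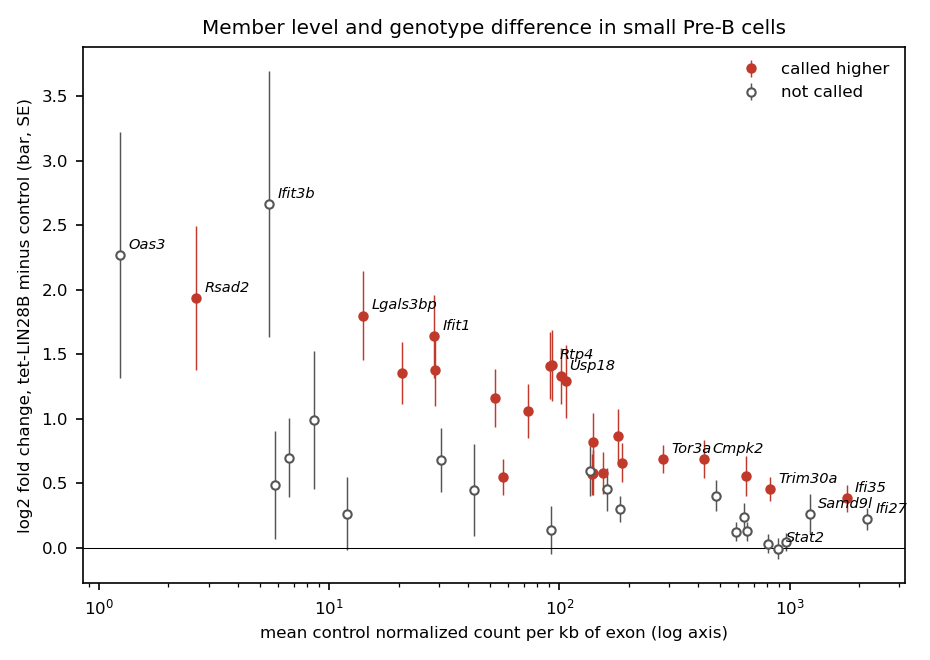
Control level per kilobase of exon in normalized counts (x axis, log scale) against the log2 fold change between tet-LIN28B and control small Pre-B libraries (y axis, bars are SE) for 44 members, filled where called higher. Differences are over 1.5 for Rsad2, at 2.63 per kilobase, and Lgals3bp, and near 0 for Stat2, at 888 per kilobase.

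In large Pre-B cells, no member passed the adjusted threshold by limma, although most values were higher in tet-LIN28B mice. Of 44 members, 0 were called higher against 0.0424% of 14155 genes, and 0 were called lower against 0.0141%. At an unadjusted p under 0.05, 21 members were higher and 0 lower, against 4.03% of all genes that were higher and 2.54% that were lower. Every tet-LIN28B library was above every control for 15 members (34.1%) and below for 0, against 3.59% and 2.87% of all genes. The median log2 fold change was 0.72, against -0.017 for all genes, and 40 of 44 were above 0, beside 48.2% of all genes. edgeR called 0 members (0% of all genes higher) and DESeq2 called 3 (0.489%), which were Cmpk2, Trim30a and Samd9l. Without control replicate 1, limma called Samd9l (0.117%).

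Cmpk2 had the smallest adjusted p in large Pre-B cells. It was at 504, 348 and 342 normalized counts in controls and at 1220.3, 1063, 607 and 845 in tet-LIN28B libraries, apart in every library, with a log2 fold change of 1.20 ± 0.27 (adjusted p = 0.225). Trim30a was at 552, 598 and 441 in controls and at 1134, 949.9, 924 and 990.1 in tet-LIN28B libraries (0.92 ± 0.21, adjusted p = 0.251). Oasl1 was at 79.3, 96.7 and 46.1 in controls and at 247, 212, 117 and 166 in tet-LIN28B libraries (1.32 ± 0.37, adjusted p = 0.504). For these 3 genes the lowest tet-LIN28B library still exceeded the highest control. Among the other genes with libraries apart, Rtp4 was at 4.25, 24.8 and 25.0 in controls and at 68.8, 44.3, 68.2 and 41.9 in tet-LIN28B libraries (1.86 ± 0.61, adjusted p = 0.728). Irf7 was at 73.0, 76.0 and 64.0 in controls and at 172, 136, 76.8 and 171 in tet-LIN28B libraries (0.90 ± 0.36, adjusted p = 0.747). For Irf7 tet-LIN28B replicate 3 was within 1 normalized count of the highest control. Ifit1 was at 4.96, 29.4 and 32.7 in controls and at 62.4, 53.0, 36.3 and 71.1 in tet-LIN28B libraries (1.59 ± 0.62, adjusted p = 0.747).

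Some members that rose in small Pre-B cells overlapped in large Pre-B cells. Isg15 was barely detected there, at 0.708, 9.21 and 13.4 normalized counts in controls and 7.11, 14.4, 14.7 and 11.4 in tet-LIN28B libraries. Rsad2 was at 12.7, 16.7 and 44.8 in controls and at 19.8, 14.4, 9.50 and 21.3 in tet-LIN28B libraries, with a log2 fold change of -0.43 ± 0.66. Bst2 gave 0.08, Ifi35 0.11 and Tor3a 0.22 on the log2 scale. Conversely, Trim25, at 764, 810.3 and 729.9 in controls and 1500.1, 1519, 1083 and 1070.4 in tet-LIN28B libraries, was apart in large Pre-B cells (0.73 ± 0.22, adjusted p = 0.578). It and Samd9l are named after their values were seen. The subunit gene Irf9 gave 0.58 ± 0.23 and Stat2 0.23, both with adjusted p-values above 0.7.

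Control replicate 2 of large Pre-B held more myeloid RNA than the others. Its 14 myeloid genes summed to 7088 normalized counts, against 321 and 1132 in the other controls and 217 to 347 in tet-LIN28B libraries, and its Lyz2 was at 4911. Without it, 19 members had an unadjusted p under 0.05 and 18 had every tet-LIN28B library above both controls, against 3.04% and 5.62% of all genes. Leaving out any other library left 14 to 22 and 14 to 27 members by these measures. The 9 of 10 erythroid genes with a large Pre-B row summed to 3341 to 3716 in control and 1816 to 2250 in tet-LIN28B libraries. The part of the erythroid RNA in the result was not tested.

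In large Pro-B cells, the libraries of both genotypes overlapped for all 43 members tested, with 0.697% of all 13776 genes having every tet-LIN28B library above every control. Limma called 0 members higher and 0 lower, as it did for all genes (0%), and edgeR and DESeq2 also called 0 members, against 0% and 0.0218% of all genes higher. At an unadjusted p under 0.05, 1 member was higher and 0 lower, against 1.80% of all genes that were higher and 1.06% that were lower. The median log2 fold change was 0.23, against 0.020 for all genes, with 35 members above 0 and 8 below, beside 52.2% of all genes above 0. This median moved by over 1.5 times when control replicate 2 or 3 or tet-LIN28B replicate 3, 4 or 5 was left out, to 0.38, 0.42, 0.35, 0.35 and 0.46, and it was 0.45 with a replicate block and 0.36 by DESeq2. The member with an unadjusted p under 0.05 was Oas2, at 18.1, 27.8, 11.5 and 54.0 normalized counts in controls and at 145, 61.8, 47.9, 123 and 48.9 in tet-LIN28B libraries (1.64 ± 0.58, adjusted p = 0.999). Of the controls, replicate 4 overlapped the tet-LIN28B range. Mx1 was at most 3.45 in controls and at 11.7, 32.1, 2.88, 0 and 27.6 in tet-LIN28B libraries, and was left out of the test by the filter on low values.

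Large Pro-B tet-LIN28B mice fell far apart from each other. Ifit3 was at 29.4, 70.2, 13.8 and 10.3 normalized counts in controls and at 170.1, 159, 29.7, 246 and 11.3 in tet-LIN28B libraries (log2 fold change 1.63 ± 0.92, adjusted p = 0.999). Usp18 was at 302, 533, 695 and 358 in controls and at 669, 701, 424, 814 and 335 in tet-LIN28B libraries (0.32 ± 0.35). Control replicates 2, 3 and 4 were thus within the range of the tet-LIN28B mice for Usp18. Irf7 was at 211, 299, 258 and 215 in controls and at 468, 391, 187, 359 and 122 in tet-LIN28B libraries (0.16 ± 0.40), where replicates 3 and 5 were below all controls. Averaged over 43 members, the tet-LIN28B mice lay 0.99, 0.98, 0.32, 0.08 and -0.01 from the control mean on the log2 scale, and the controls lay at 0.12, 0.43, 0.08 and -0.62. Control replicate 4 was the lowest of the 9 libraries for 14 of 44 members, a count not taken over all genes. Without tet-LIN28B replicate 4, 7 members had an unadjusted p under 0.05, beside 6% of all genes. The sum of the 10 erythroid genes was 3440 to 4847 in control and 1554 to 3581 in tet-LIN28B libraries, and that of the 14 myeloid genes 1311 to 4986 and 1249 to 1608, whose part in these values was not tested.

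**Figure D4:**
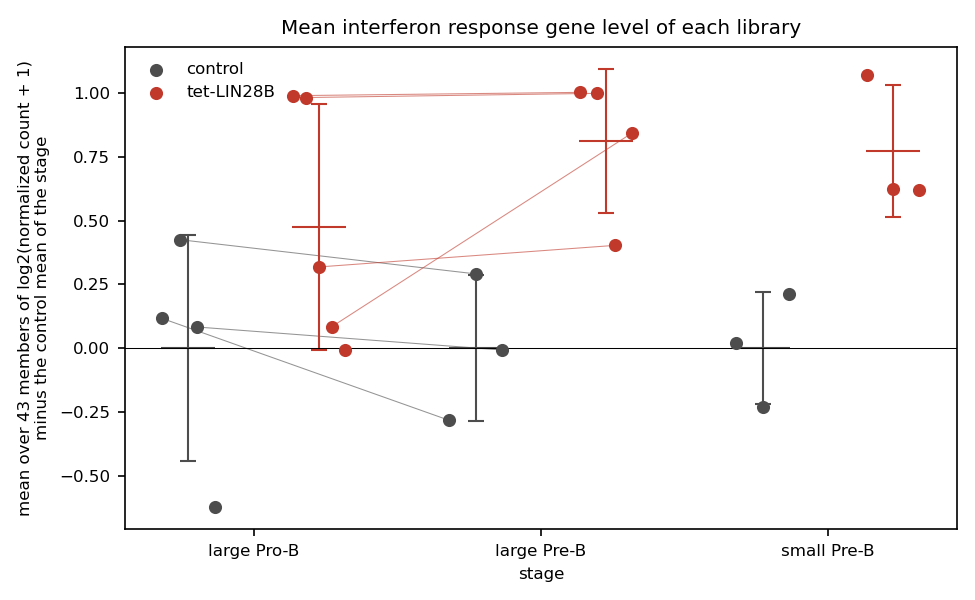
Mean over 43 members of log2(normalized count + 1) minus the control mean of the stage (y axis) for each of 22 libraries by stage and genotype, with the group mean and SD as bars and lines joining the 7 mice that gave both large stages. The tet-LIN28B mice of large Pro-B span -0.01 to 0.99 and overlap the controls, and those of large Pre-B (0.40 to 1.00) and small Pre-B (0.62 to 1.07) lie above them.

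The 7 mice that gave both large stages could be followed individually. Replicates 1 and 2 of tet-LIN28B had mean log2 levels of 0.99 and 0.98 above the control mean as large Pro-B cells and 1.00 and 1.00 as large Pre-B cells, and replicate 3 had 0.32 and 0.40. Replicate 4 changed most, from 0.08 to 0.84. The 3 controls moved from 0.12 to -0.28, from 0.43 to 0.29 and from 0.08 to -0.01, where each stage is centred on its own controls. The large Pro-B centre also includes control replicate 4, at -0.62, which gave no large Pre-B library. It lowers that centre, so large Pro-B values of all 7 mice are raised relative to their large Pre-B values. Moves between the stages, or their absence, therefore partly reflect unlike control sets.

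The genotype effect of no member was shown to differ between stages. In 1 limma model of all 22 libraries with the mouse as a random block, 0 of 43 members passed for small Pre-B minus large Pro-B, small Pre-B minus large Pre-B, or large Pre-B minus large Pro-B, beside 0.0338%, 0.0169% and 0% of all 11830 genes. At an unadjusted p under 0.05 there were 3, 1 and 4 members. The share of all genes at that threshold was not computed, so these counts cannot be read against it. No other tool was run on these differences. Cmpk2 had the smallest adjusted p, with an effect 1.11 ± 0.31 higher on the log2 scale in large Pre-B than in large Pro-B cells (adjusted p = 0.703). Lgals3bp followed, with an effect 1.40 ± 0.50 higher in small Pre-B than in large Pro-B cells (adjusted p = 0.790). Of the 43 members tested in all stages, 0 were called in all 3. None could be, since limma called 0 of all 13776 genes in large Pro-B cells. The large stages share 7 mice and are not independent repeats of each other.

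**Figure D5:**
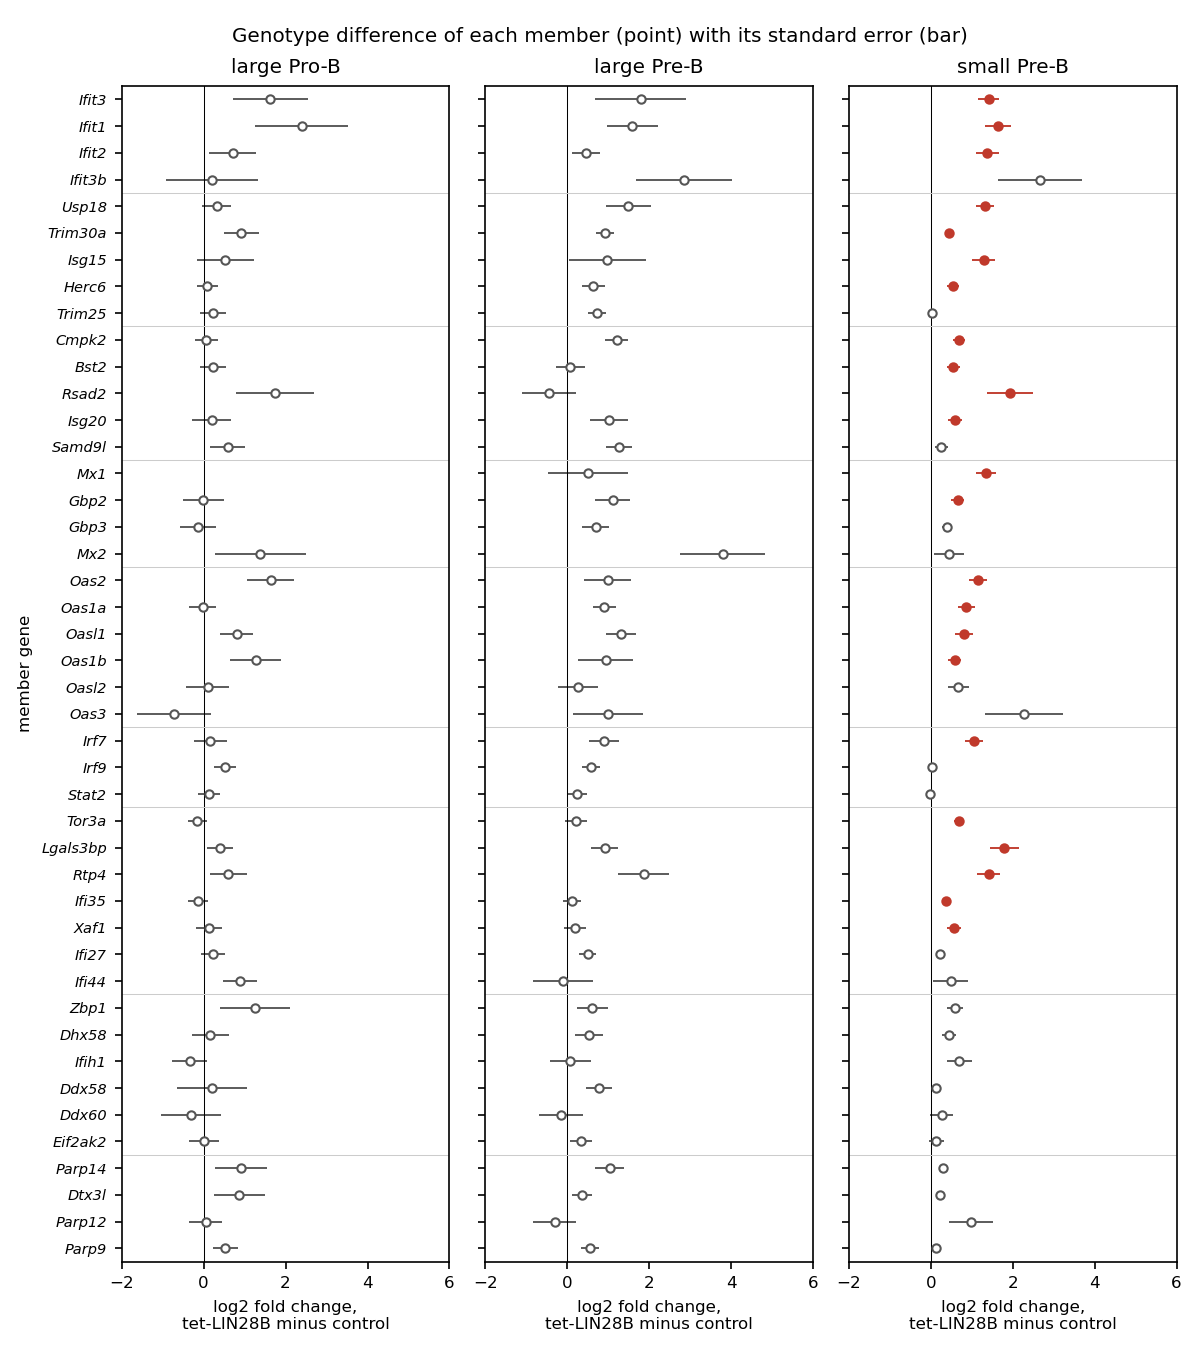
Log2 fold change of tet-LIN28B minus control (x axis, point) with its standard error (bar) for each member in the 3 stages, filled red where called higher. All 23 filled points are in small Pre-B cells, where the bars are shorter than in the large stages for genes such as Usp18 and Isg15.

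The rest of the pathway was read from 4 gene lists. Of 21 interferon ligand genes, 14 had a row in the large Pro-B table, 12 in the large Pre-B and 4 in the small Pre-B table, 0 passed the filter on low values at any stage, and none exceeded 11.3 normalized counts in any library (Ifnab in large Pro-B tet-LIN28B). The ligand gene Ifnb1 reached 8.63 in a large Pro-B library and 1.42 in a large Pre-B library. Poly-A libraries of sorted B cell precursors do not measure ligand made by other marrow cells.

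In small Pre-B cells, limma called 5 of 21 receptor and signalling genes (23.8%) higher and 0 lower, against 7.34% and 7.03% of all genes, with 1 lower at an unadjusted p under 0.05. Ptpn6, which encodes the phosphatase SHP-1, gave 0.55 ± 0.08, and the interferon gamma receptor gene Ifngr1 0.38 ± 0.07. Irf8, a lymphoid and myeloid transcription factor gene, gave 0.32 ± 0.07. The type I receptor genes Ifnar1 and Ifnar2 gave -0.02 ± 0.08 and 0.14 ± 0.11, Jak1 gave 0.00 ± 0.11, and Irf3, the factor downstream of the sensors, 0.06 ± 0.07. Tyk2 gave -0.29 ± 0.09 with an adjusted p of 0.0617 and had every tet-LIN28B library below the controls. In the large stages 0 genes of this list passed by limma, with 0 at an unadjusted p under 0.05 in large Pro-B and 1 higher in large Pre-B cells, against 4.03% of all genes higher there. In large Pro-B cells 4 of the 22, which were Ifnar2, Ifngr2, Irf2 and Ptpn6, had every tet-LIN28B library below every control (18.2%), against 0.602% of all genes, and were named after their values were seen. Ifnar2 was at 1928 to 2350.4 normalized counts in these controls and at 1662 to 1788 in tet-LIN28B libraries (log2 fold change -0.33 ± 0.17, adjusted p = 0.999).

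In small Pre-B cells, limma called 4 of 20 nucleic acid sensing genes outside the 44 (20%) higher and 2 (10%) lower, against 7.34% and 7.03% of all genes. Tmem173, which encodes the DNA-pathway adaptor STING, rose by 0.62 ± 0.07 on the log2 scale (adjusted p = 0.000447), and Trex1, a DNA exonuclease gene that limits this pathway, by 0.35 ± 0.08. Tlr7, an endosomal RNA sensor gene, was at 0, 5.41 and 15 normalized counts in controls and at 34.4, 45.6 and 92.2 in tet-LIN28B libraries (3.52 ± 0.89, adjusted p = 0.0263). Mavs, the adaptor of the RIG-I-like receptors, was lower, at 2263 to 2488 in controls and 1745 to 1908 in tet-LIN28B libraries (-0.39 ± 0.08, adjusted p = 0.0101). In the large stages 0 of 21 genes passed by limma, with 1 higher at an unadjusted p under 0.05 in large Pro-B cells and 5 higher and 1 lower in large Pre-B cells, against 1.80% of all genes higher in the former and 4.03% higher and 2.54% lower in the latter. In large Pre-B cells Tlr7 was at 0 to 8.32 in controls and 7.11 to 34.0 in tet-LIN28B libraries (2.63 ± 1.04, adjusted p = 0.747).

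Genes better known as targets of interferon gamma also rose in small Pre-B cells, 9 of 20 tested (45%), with 0 lower by limma, against 7.34% and 7.03% of all genes, and 0 lower at an unadjusted p under 0.05. Gbp7 was at 155 to 217 normalized counts in controls and 394 to 447 in tet-LIN28B libraries (log2 fold change 1.13 ± 0.17, adjusted p = 0.00237). Ciita, the activator of MHC class II genes, gave 0.92 ± 0.16, the immunoproteasome gene Psmb8 0.37 ± 0.07 and the GTPase gene Igtp 0.55 ± 0.10. The median over this list was 0.26, beside 0.59 for the 44 members. In the large stages 0 of 22 passed by limma, while 6 were higher and 1 lower at an unadjusted p under 0.05 in large Pre-B cells, against 4.03% and 2.54% of all genes, and 0 in large Pro-B cells.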

How the data were processed

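Poly-A RNA of sorted bone marrow B cell precursors was sequenced after SMART-Seq v4 and Nextera XT library preparation. According to the submitters' notes, the authors used STAR 2.7.1 for alignment, mm10 as the genome, RSEM 1.28 for quantification and DESeq2 for normalization; the counted annotation is not given in sources used here. Each deposited table covers 1 stage and holds a signal, the normalized count, which the authors obtained as reads over a library's size factor. The authors' deposited test tables (base means, log2 fold changes, standard errors, Wald statistics and p-values) were not used. Libraries of a stage are separate mice per the labels.

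Values were whole multiples of 1 read in 100% of cases within 0.1 read, which gave the library totals and whole reads for edgeR 4.0.16 and DESeq2 1.42.0 as alternative tests. Totals and floors of 3 reads cover counting error only. The main test was limma 3.58.1 in R 4.3.3 (eBayes with trend) on log2(normalized count + 1) within a stage, for genes that reached a normalized count of 10 in a number of libraries no lower than the size of the smaller group. Fold changes on this scale understate those of low genes. The adjustment ran over all genes tested, and scripts were tested on simulated data. Alternatives were other pseudocounts (0.5 and 8), filters (none and 50), rescaling, quantile normalization, a replicate block, a fit of all stages and each library left out. Exon lengths came from GENCODE M21 and gene spans and promoter windows from RefSeq GRCm38.p6, the build of mm10.

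Members, role groups and lists were chosen with earlier results of these data known. Values per library are given by a rule: members called in at least 1 stage, up to 4 per role group by adjusted p, and the member with the smallest p of a group with no call. Values of some of these were added for the large stages. Pathway genes were named when called, up to 4 per list, with further signalling and sensing genes named whatever their values. A gene of that rule and a marker are not reported here.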

Additional observations from a re-analysis of the deposited data

Results flagged for a closer look

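Single libraries stood apart from the rest of their group for 10 of 130 member and group combinations of 4 or 5 libraries, by a gap to the nearest library that was large for the range of the group. Chance gives about 1 such case in 20 groups. In large Pro-B controls, Irf9 was low in replicate 4 at 452 normalized counts, with 804 next, Eif2ak2 was high in replicate 4 at 1146, with 435 next, and Gbp3 was high in replicate 1 at 1171, with 624 next. In large Pro-B tet-LIN28B libraries, all 3 cases were replicate 4, where Ifih1 was at 188 and Rtp4 at 1002, both high, and Dtx3l at 208, which was low. In large Pre-B tet-LIN28B libraries, replicate 3 was low for Ifit3 at 8.63, for Ifit3b at 4.32 and for Stat2 at 687, and replicate 4 was high for Parp9 at 1074. Small Pre-B groups of 3 libraries were not examined in this way.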

How the results depend on the processing

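No result reversed. In small Pre-B cells the 23 members called higher were 20 to 27 under other pseudocounts, filters, scalings and count tests, 12 to 24 with a library left out, and 0 with the stages in 1 fit, which pools their spread (SD of library means within groups 0.24 in small Pre-B, 0.29 in large Pre-B and 0.46 in large Pro-B cells, log2 scale), and the cause was not tested. Rescaling to equal totals gave 20 members, with 829 genes in all higher and 1227 lower. Genes in all called higher were 829 to 1357 under those other settings and count tests, 497 to 964 with a library left out and 1076 in the main fit. In large Pre-B cells the count was 3 by DESeq2 and 0 to 1 with a library left out. The median log2 fold change with a library left out was 0.49 to 0.73 in small Pre-B, 0.52 to 0.85 in large Pre-B and 0.22 to 0.46 in large Pro-B cells. Same-numbered libraries of the genotypes correlated at -0.19 to 0.43, and the main test did not treat them as pairs. In large Pro-B cells replicates 1 and 4 had the same-numbered library as best partner, and no other replicate of any stage did. So few pairs cannot exclude a pairing. With a replicate block 21 members were called in small Pre-B and 0 in the large stages. No stage difference was called under any alternative. For single members in one stage, 75 combinations lost and 20 gained the call. Low members such as Oas3 and Ifit3b had wide standard errors, and the part of depth in these was not tested.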

Other observations

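The members lie on 15 chromosomes, and 21 of the 44 fall into 8 runs of neighbours less than 1000000 bases apart. Within the Oas run at chr5:120730333-120907544, Oas2, Oas1a and Oas1b were called higher in small Pre-B cells and Oas3 was not. Within the run at chr16:35831892-35972621, which holds Parp14, Dtx3l and Parp9, none was called. The spans of Dtx3l and Parp9 overlap, so they can share reads.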
